A study of Arabidopsis thaliana with 12 samples.

Results

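The 25 Arabidopsis thaliana genes described here had a lower quantile-normalised array signal after recovery from light stress in all 6 pairs of samples. In the deposited values, without that scaling, 11 of the 25 were lower in all 6 pairs. In the other 14 at least 1 pair was higher after recovery. The genes were chosen from the measured values. A pair is a recovered and a control sample with the same replicate number. A gene was taken where the log2 difference, recovered minus control, was under -0.25 in all 6 pairs, where its probe was annotated with exactly 1 gene, and where at least 6 of the 12 deposited values lay above a floor for dim signals. Of 3439 probes, 3177 passed that filter, and 631 of these carried 1 gene. The pair rule found 29 of the 631, and 4 were set aside because they belong to other gene groups (AT5G10920, PSB27, CUTA and LPA19). Pentatricopeptide repeat genes were to be set aside as well, and none met the pair rule. The differences that chose the genes are given below as a description, without a test.

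All samples were wild-type plants of the ecotype Columbia 0, assayed as total RNA on arrays. The 6 recovered samples came from plants that received light of 1000 µE for 1 h and afterwards spent 48 h back at 80 µE. The 6 control samples came from plants kept in light of 80 µE, and the titles mark them as the starting time. The labels do not name the plant organ or the age, and no control of the same later time was analysed here, so light stress, age and time of harvest cannot be told apart. No label ties the samples to separate plants or cultures.

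Light far above what photosynthesis can use damages photosystem II and raises reactive oxygen in the chloroplast, and plants answer with repair and protection that continue after the light returns to normal. Signals from chloroplasts and mitochondria reach the nucleus and alter transcription of genes for organelle proteins, defence and metabolism. The comparison asks which transcripts differ from the starting level 48 h after a short light stress. None of the 12 samples was taken during the stress or right after it, so whether a difference began then was not tested.

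The deposited values were intensities on a linear scale. They were quantile normalised, values under the floor of 0.0322 were raised to it, and log2 was taken, so a level below is a log2 intensity and a difference is recovered minus control on that scale. The sum of intensities was 2874 to 3406 per sample, and 82.3% to 93.1% of probes lay above the floor. Pearson's r across probes was 0.854 to 0.939 between samples with adjacent numbers (1 and 2, 3 and 4, 5 and 6) and 0.650 to 0.794 within a group otherwise. Every sample was closest to its adjacent number, so the 6 pairs may hold only 3 separate comparisons, and differences are also given as means over adjacent numbers. An antenna gene of mesophyll cells, LHB1B2, was the only one of the 10 fixed cell type markers with a probe of its own, with mean log2 intensity of 4.19 in recovered and 3.95 in control samples. The guard cell, trichome, companion cell and root markers were not measured, so the mix of cell types was not tested, and fewer cells of a type and less RNA per cell cannot be told apart.

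Over the whole array, 166 of 3177 tested probes met the pair rule, or 5.23%, and 131, or 4.12%, met its mirror image of over 0.25 in all 6 pairs. Of the 166 probes, 108 had no annotated gene and 29 had several. Among the 631 probes with 1 gene the shares were 4.6% lower and 3.8% higher. The share for named genes was thus close to that of the whole array. The median gene of the 25 was 2.01-fold lower, where the median log2 difference of all tested probes was 0.00, and the rule fixes this sign. Mean differences spanned 1.38-fold lower for MAMI to 8.18-fold lower for AT2G36480, and 14 genes were at least 2-fold lower on average. AT2G46630 alone was at least 2-fold lower in each single pair.

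**Figure D1:**
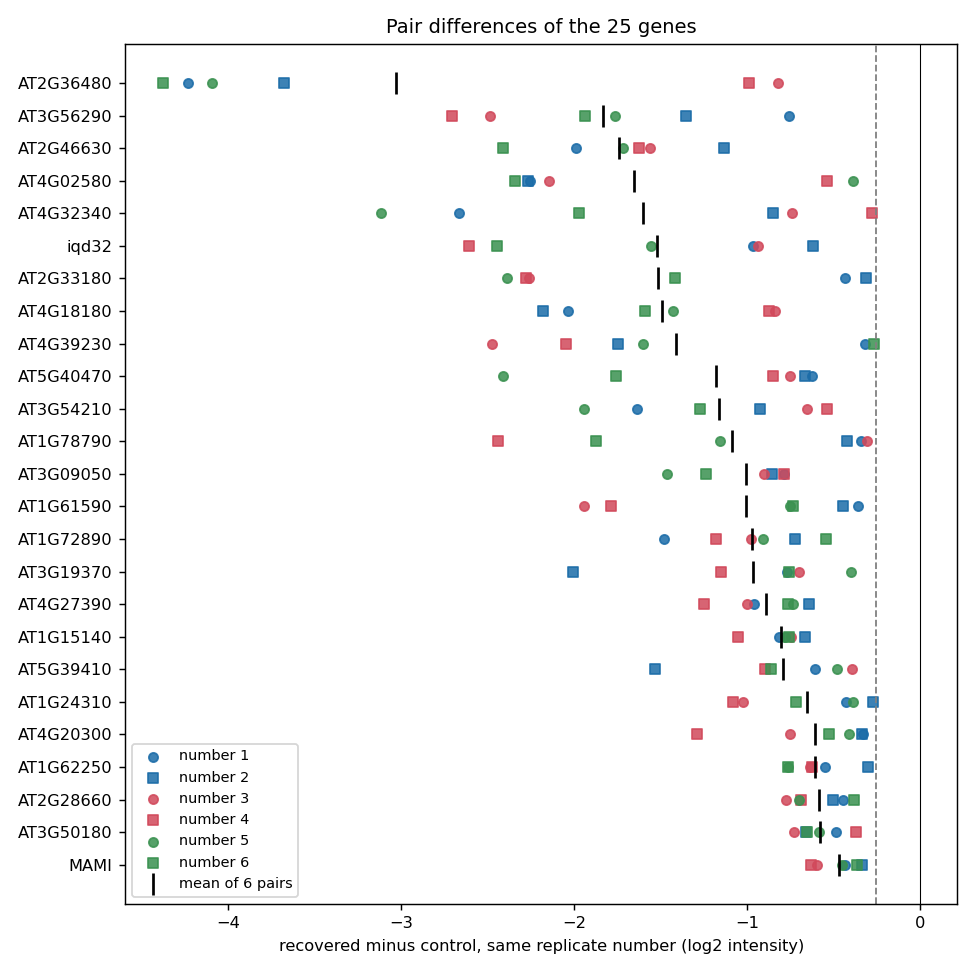
Each row is 1 of the 25 genes, and each point is the log2 difference, recovered minus control, of 1 pair of samples with the same replicate number; colour marks adjacent numbers, the black bar is the mean of the 6 pairs and the dashed line is the threshold of -0.25. All points lie left of the threshold by choice, the points of AT2G36480 run from -4.38 to -0.82 and those of MAMI only from -0.63 to -0.33.

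The strongest decrease was that of AT2G36480, for which no function is given here. Its lowest, median and highest log2 intensity was -2.65, -1.96 and -0.56 in recovered samples, against 0.27, 1.56 and 2.32 in control samples. The groups lay apart, and the size of the gap differed between adjacent numbers. The mean difference was -3.03 ± 1.67 (SD, n = 6 pairs). It was -3.95 over numbers 1 and 2 and -4.24 over numbers 5 and 6, against -0.90 over numbers 3 and 4. In numbers 3 and 4 both groups differed from the rest: the recovered samples were the highest of their group at -0.56 and -0.57, and the controls were the lowest of theirs at 0.27 and 0.41. In deposited units the lowest, median and highest intensity was 0.271, 0.392 and 0.554 in recovered samples, against 1.19, 3.08 and 4.67 in control samples, so the groups also lay apart without scaling, as they did for 5 of the 10 genes whose groups lay apart with it.

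AT3G56290 and AT2G46630 came next and also had groups that lay apart. No function is given here for either gene. AT3G56290 had a lowest, median and highest log2 intensity of -2.83, -2.34 and -1.87 in recovered samples, against -1.12, -0.42 and -0.10 in control samples. Its difference of -1.83 ± 0.72 (SD, n = 6 pairs), or 3.56-fold lower, was largest where that of AT2G36480 was smallest. It stood over numbers 3 and 4 at -2.60 and over numbers 1 and 2, where it was smallest, at -1.05. AT2G46630 had -2.07, -1.19 and -0.93 in recovered samples, against 0.20, 0.39 and 0.53 in control samples. Its controls were the tighter group, with an SD of 0.12 against 0.43 in recovered samples. Its difference of -1.74 ± 0.43, or 3.34-fold lower, was the most even of these 3 strongest genes, at -1.56, -1.59 and -2.06 over numbers 1 and 2, 3 and 4, and 5 and 6.

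Some genes encode parts of organelles. AT3G54210 encodes protein L17 of the plastid ribosome, which translates the photosystem and other proteins that chloroplast DNA encodes. Its lowest, median and highest log2 intensity was -2.77, -1.55 and -0.57 in recovered samples, against -0.82, -0.44 and -0.04 in control samples. The groups overlapped because recovered 3 and 4, at -0.73 and -0.57, lay within the range of the controls. The mean was -1.55 ± 0.83 in recovered and -0.39 ± 0.30 in control samples (SD, n = 6 each), so the recovered samples were the more spread group. The difference was -1.16 ± 0.56 (SD, n = 6 pairs), or 2.24-fold lower. Of the 40 nuclear genes on the list of plastid ribosomal proteins, 5 were tested. AT3G54210 alone of these met the pair rule, and limma over all tested probes called 0 of them. In that fit 1 of the 5 had an unadjusted p under 0.05, as did 580 of all 3177 tested probes. The other tested genes of the list had differences of -0.59 (AT3G13120, protein S10), -0.54 (AT1G29070, protein L34), -0.53 (AT1G64510, protein S6) and -0.16 (AT4G01310, protein L5). They lay lower in 5, 5, 3 and 3 of 6 pairs, in that order. None of the 7 plastid translation factors on the list was tested.

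AT4G02580 encodes a subunit of mitochondrial complex I, the NADH dehydrogenase that feeds electrons into respiration. It was the dimmest of the 25 genes. Its lowest, median and highest log2 intensity was -4.95, -4.95 and -2.09 in recovered samples, against -4.57, -2.65 and -1.30 in control samples. After scaling, 4 of the 6 recovered values were at the floor, although in deposited units all 6 lay above it, at 0.0431 to 0.150. The mean log2 difference of -1.66, or 3.15-fold lower, thus depends on where the floor stands. With the floor at the 20th percentile of positive values it was -0.63. The scaling turned the order of pair 5. There the deposited intensity was 0.0614 in the recovered sample and 0.00568 in the control, which is under the floor, while after quantile normalisation the control stood at -4.57 and the recovered sample at -4.95. In the other 5 pairs the deposited recovered value was also the lower. AT2G28660, which encodes a copper chaperone-like protein directed to chloroplasts, lay above the floor in all samples and differed little: its lowest, median and highest log2 intensity was -1.92, -1.59 and -1.12 in recovered samples, against -1.47, -1.05 and -0.35 in control samples. The groups overlapped, and the difference of -0.58 ± 0.16 (SD, n = 6 pairs) was even over the pairs after scaling. In deposited units it was higher after recovery in 4 of the 6 pairs, at 0.42 in recovered 1 against 0.355 in control 1, 0.427 in recovered 2 against 0.377 in control 2, 0.436 in recovered 5 against 0.356 in control 5 and 0.502 in recovered 6 against 0.332 in control 6. It was lower in pairs 3 and 4, at 0.328 in recovered 3 against 0.718 in control 3 and 0.266 in recovered 4 against 0.545 in control 4.

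IQD32, AT1G61590 and AT1G72890 are described together for the roles their families have in signalling and defence; no list of such genes was tested. IQD32 (iqd32, AT1G19870) belongs to the IQ-domain family of calmodulin-binding proteins, which connect calcium signals to microtubules and membranes. Its lowest, median and highest log2 intensity was -4.03, -2.72 and -1.79 in recovered samples, against -1.75, -1.19 and -0.79 in control samples. The groups lay apart by a small margin. The lowest recovered value was that of recovered 4, with a deposited intensity of 0.0346, near the floor of 0.0322. In deposited units 1 pair was higher after recovery and the groups overlapped, with a highest recovered intensity of 0.45 and a lowest control of 0.22. Its difference was -1.52 ± 0.84 (SD, n = 6 pairs), or 2.87-fold lower. AT1G61590 encodes a receptor-like cytoplasmic kinase of the family that relays immune receptor signals. It had -2.05, -1.87 and -1.45 in recovered samples, against -1.32, -1.06 and -0.10 in control samples. Its groups lay apart after scaling, and controls 3 and 4, at -0.10 and -0.17, stood above the other controls. Its difference over numbers 3 and 4 was -1.86, and over all pairs it was 2-fold lower. In deposited units the groups overlapped and 4 of the 6 pairs were higher after recovery, at 0.55 in recovered 1 against 0.459 in control 1, 0.483 in recovered 2 against 0.422 in control 2, 0.421 in recovered 5 against 0.353 in control 5 and 0.357 in recovered 6 against 0.279 in control 6. The lower values after recovery were thus in pairs 3 and 4 alone without scaling. AT1G72890, which encodes a TIR-NBS protein of the intracellular immune receptor class, had -3.38, -2.64 and -2.15 in recovered samples, against -2.09, -1.86 and -1.17 in control samples. This difference of -0.97 ± 0.33, or 1.96-fold lower, came with groups that lay apart after scaling. With the deposited scaling it was -0.38, 3 of 6 pairs were higher after recovery, and the groups overlapped, with a highest recovered intensity of 0.283 and a lowest control of 0.184.

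Cell wall and phenylpropanoid genes were represented by AT4G18180 and AT4G39230. AT4G18180 encodes a pectin lyase-like protein, of a superfamily that cuts wall pectin. Its lowest, median and highest log2 intensity was -3.08, -2.18 and -0.64 in recovered samples, against -1.49, -0.24 and 0.23 in control samples. The groups overlapped only through recovered 3 and 4 and controls 5 and 6. Over adjacent numbers the difference was -2.11, -0.85 and -1.51 for 1 and 2, 3 and 4, and 5 and 6, with a mean of -1.49 ± 0.56 (SD, n = 6 pairs), or 2.81-fold lower. AT4G39230 resembles phenylcoumaran benzylic ether reductases, enzymes of lignan and related phenylpropanoid metabolism. Its difference was -1.41 ± 0.92 (SD, n = 6 pairs), or 2.65-fold lower. It was nearest to the threshold of all 25 genes, with -0.26 in pair 6 and -0.31 in pair 1. It was also dim, with -4.95, -3.94 and -3.03 in recovered samples, against -3.14, -2.62 and -1.95 in control samples. In those same pairs the deposited intensity was higher after recovery, at 0.193 in recovered 6 against 0.0911 in control 6 and at 0.169 in recovered 1 against 0.101 in control 1.

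MHF2 and AT1G24310 have roles in the nucleus. MHF2 (AT1G78790) encodes a histone-fold protein that acts with the FANCM helicase on DNA during repair and meiosis. Its lowest, median and highest log2 intensity was -4.01, -3.10 and -2.62 in recovered samples, against -2.34, -2.29 and -1.57 in control samples. The groups lay apart, but the difference was -0.31 in pair 3 and -2.44 in pair 4, the widest gap between adjacent numbers among the 25 genes. The deposited intensity of recovered 4 was 0.0348, near the floor of 0.0322. In deposited units the groups overlapped, and 3 of 6 pairs were higher after recovery. AT1G24310 encodes a nucleoporin of the NUP54 type, part of the nuclear pore channel. It had -2.32, -1.63 and -1.40 in recovered samples, against -1.60, -1.09 and -0.48 in control samples, with overlapping groups, and in deposited units 4 of 6 pairs were higher after recovery. Its weakest pair, at -0.27 in pair 2, was the second nearest to the threshold. Just outside the threshold lay AT1G21660, at -0.24 in its weakest pair and -0.43 ± 0.25 on average, and AT2G41950, at -0.21 and -0.53 ± 0.28 (SD, n = 6 pairs each). These mean differences were close to those of the weakest of the 25 genes, so the threshold does not mark a gap in the data.

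Of the remaining strong decreases, AT4G32340 encodes a tetratricopeptide repeat protein and had -4.95, -2.87 and -1.04 in recovered samples, against -1.84, -1.35 and -0.46 in control samples as lowest, median and highest log2 intensity. The groups overlapped, and recovered 5 lay at the floor after scaling, with a deposited intensity of 0.0583. Its pairs were spread from -3.12 in pair 5 to -0.27 in pair 4, with a mean of -1.60 ± 1.15 (SD, n = 6 pairs). AT2G33180, for which no function is given here, was bright, with -1.16, 0.39 and 0.77 in recovered samples, against 0.73, 1.26 and 3.05 in control samples. Here the adjacent numbers differed mainly in the controls: controls 3 and 4 stood at 2.93 and 3.05, and no other control exceeded 1.29. The groups overlapped narrowly, and the difference was -1.51 ± 0.95 (SD, n = 6 pairs). In AT5G40470 it was controls 5 and 6 that stood high: at 1.55 and 1.51 they were far above the other controls, of which the highest was 0.01. Its mean was -0.85 ± 0.41 in recovered and 0.32 ± 0.96 in control samples (SD, n = 6 each).

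**Figure D2:**
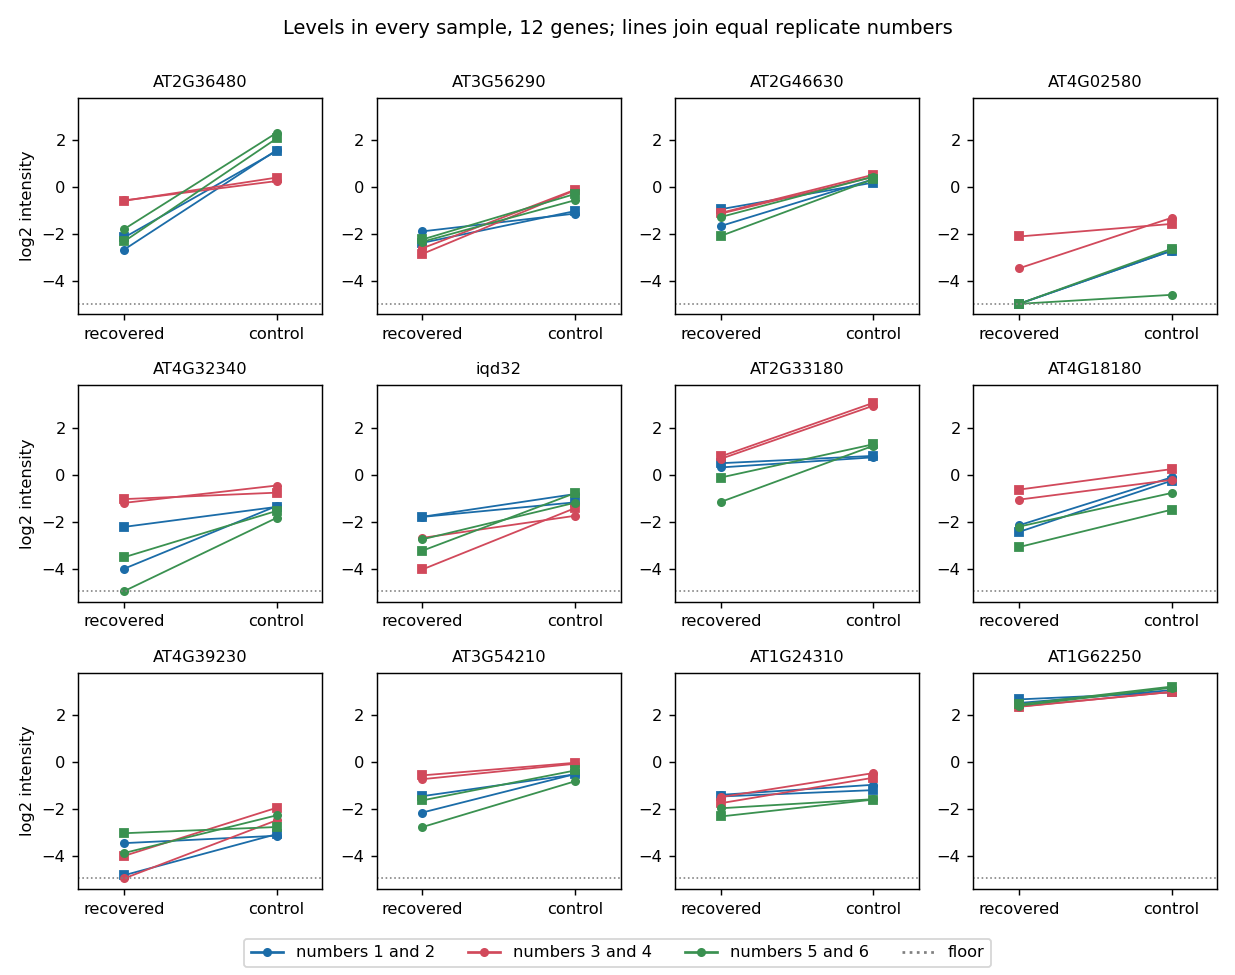
Log2 intensity of 12 of the genes in every sample, recovered left and control right; lines join samples with the same replicate number, colours mark adjacent numbers and the dotted line is the floor. In AT2G36480 the lines of numbers 3 and 4 are the flattest, and in AT2G33180 controls 3 and 4 stand highest, at 2.93 and 3.05. In AT4G02580 4 recovered samples lie on the floor after scaling.

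AT1G62250 was the brightest of the 25 genes and had 2.34, 2.42 and 2.66 in recovered samples, against 2.95, 3.01 and 3.20 in control samples as lowest, median and highest log2 intensity. The groups lay apart, each with a small spread, and the difference was -0.60 ± 0.17 (SD, n = 6 pairs), or 1.52-fold lower. AT3G09050 was 2.01-fold lower, at -0.42 ± 0.14 in recovered and 0.59 ± 0.28 in control samples (SD, n = 6 each), and AT4G27390 was 1.85-fold lower, and the groups of both lay apart. In deposited units those of AT4G27390 overlapped. AT1G15140, an FAD-dependent oxidoreductase gene, had overlapping groups at -1.38 ± 0.37 in recovered and -0.58 ± 0.43 in control samples. Yet its pairs were among the most even, between -1.05 and -0.67. MAMI (AT5G54110), named as a membrane-associated protein induced by mannitol, had the smallest difference, -0.47 ± 0.12, and AT3G50180 had -0.58 ± 0.13. In 5 genes the pairs spanned less than 0.5: MAMI, AT3G50180, AT1G15140, AT2G28660 and AT1G62250. In deposited units MAMI, AT3G50180 and AT1G15140 each had 2 pairs that were higher after recovery, while AT1G62250 had none. The others were AT5G39410, of a saccharopine dehydrogenase-like type, at 1.73-fold lower, AT4G20300 at 1.52-fold and AT3G19370 at 1.95-fold, all with overlapping groups. These were higher after recovery in 3, 4 and 3 of the 6 pairs in deposited units, in that order.

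In all, the 6 recovered samples lay below the 6 controls for 10 of the 25 genes, where this held for 93 of all tested probes, or 2.93%. The 10 were AT2G36480, AT3G56290, AT2G46630, IQD32, MHF2, AT3G09050, AT1G61590, AT1G72890, AT4G27390 and AT1G62250. With the deposited scaling kept the groups lay apart for 6 of the 25 (1.67% of all tested probes). Of the 10, the groups of AT2G36480, AT3G56290, AT2G46630, AT3G09050 and AT1G62250 still lay apart and those of the other 5 overlapped, and AT2G33180 was the added gene. With array medians aligned the groups lay apart for 11 (3.27%), 9 of them among the 10, and with cyclic loess for 10 (2.83%), 8 of them among the 10. The limma fit over all tested probes, at a Benjamini-Hochberg adjusted p under 0.05, called 4 of the 25 lower, with 1.29% of all tested probes called lower. With the replicate number as a block it called 5, with 1.35% of all tested probes, and the added gene was AT4G18180. Leaving out any 1 sample gave 3 to 5 of the 25. For these fits no share of all tested probes called lower is given, and the count called over the whole array also changed. With adjacent numbers averaged limma called 0 of the 25 and 0% of all tested probes lower, with 8 of the 25 and 164 of all tested probes at an unadjusted p under 0.05. A random block for adjacent numbers in limma left 0 of the 25 and 0.0315% of all tested probes called lower, with 15 of the 25 and 268 of all tested probes at an unadjusted p under 0.05. The pair rule used the same contrast, so these counts describe the choice and support nothing.

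The pairs differed in size from gene to gene. The median difference of the 25 genes was -0.76, -0.67, -0.82, -1.05, -0.91 and -0.86 in pairs 1 to 6, and none of these medians stood far from the others. Over adjacent numbers the decrease was weakest in 1 and 2 for 14 genes, in 3 and 4 for 7 and in 5 and 6 for 4. For 14 genes the range of the 3 adjacent means exceeded the widest gap between 2 adjacent numbers. Among the controls of 19 of the 25 genes (76%), numbers 3 and 4 had the highest mean of the adjacent numbers, against 41.2% of all tested probes, and among the recovered samples this held for 15 (60%), against 36.4%. The difference thus shared its samples with a level pattern over adjacent numbers, whose part in the result was not tested. The levels of numbers 3 and 4 enter the differences that chose the genes, so these shares are not independent of the choice. In 9 genes (36%) the SD of the pair differences was below the SD of both groups, against 19.9% of all tested probes. The pair rule used the same differences and favours even ones, so this share is not independent of the choice.

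By mean level the genes lay from the 10.5th to the 98.6th percentile of all tested probes. Their mean log2 intensity over all samples ran from -3.40 for AT4G02580 to 2.75 for AT1G62250, with a median of -1.18 against -1.74 for all tested probes and -1.97 for those with 1 gene. Of the 25 genes, 17 lay above the median of all tested probes, 9 in the top quartile and 3 in the bottom quartile. In 3 genes at least 1 scaled value stood at the floor, and in 23 all 12 deposited values lay above it. The filter on dim probes and the pair rule both bear on the level, so it is not independent of the choice.

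**Figure D3:**
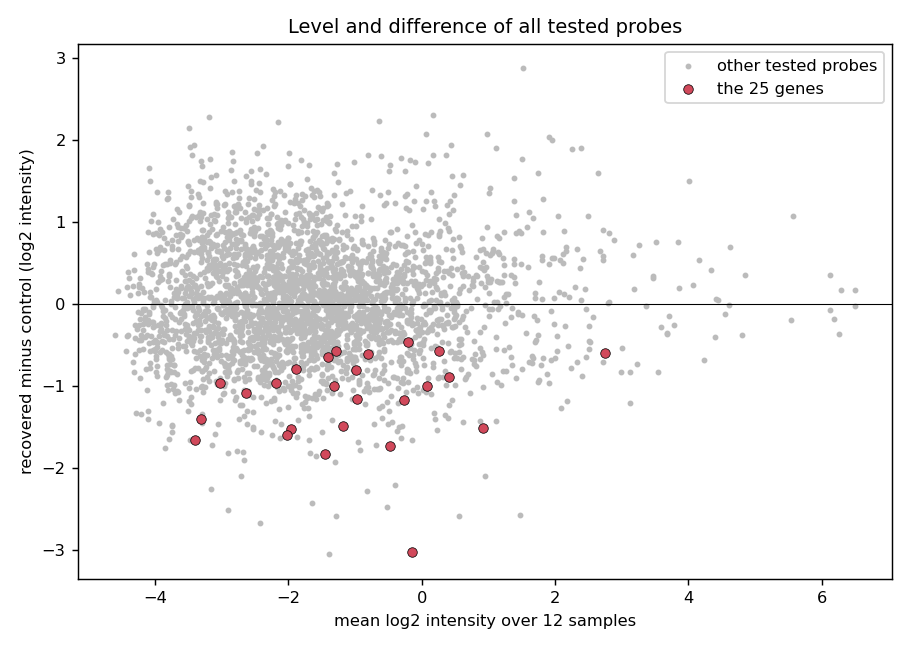
Each point is a tested probe, with the mean log2 intensity over 12 samples on the x axis and the mean difference, recovered minus control, on the y axis; red points are the 25 genes. The genes spread over levels from -3.40 to 2.75, and AT2G36480 at -3.03 lies near the lower edge of all probes.

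By locus tag, 7 of the genes were on chromosome 1, 4 on chromosome 2, 5 on chromosome 3, 6 on chromosome 4 and 3 on chromosome 5. The tested probes with 1 gene numbered 150, 118, 120, 115 and 127 in the same order, and 1 had no locus tag. No members were neighbours: the closest, AT1G61590 and AT1G62250, had 62 protein-coding genes between them in RefSeq's TAIR10.1 table. Among the other fixed lists, the photosystem II list had 3 tested genes of 17, of which PSB27 met the pair rule and is set aside here. The Calvin cycle list had 2 tested of 20 and none met it. Of 11 histidine biosynthesis genes AT-HF alone was tested. It was lower in all 6 pairs, with a mean difference of -1.93 ± 1.46 (SD, n = 6 pairs). Its weakest pair was at -0.02, outside the threshold.

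The scaling between arrays changed which genes met the rule. With the deposited scaling kept, 6 of the 25 still lay under -0.25 in all 6 pairs, where 1.7% of all tested probes did: AT2G36480, AT2G46630, AT4G18180, AT3G54210, AT3G09050 and AT1G62250. These 6 also met it under cyclic loess and with aligned array medians. In the deposited values the median of all tested probes lay higher after recovery by 0.58, 0.55, 0.94 and 0.90 in pairs 1, 2, 5 and 6 and lower in pairs 3 and 4, at -0.20 and -0.20. In pairs 3 and 4 all 25 genes were under -0.25 in the deposited values. Measured against each pair's median of all tested probes, 20 of the 25 were under -0.25 in all 6 pairs. A share of all tested probes is given for neither count, and the same contrast chose the genes. With array medians aligned 21 of the 25 met the rule (7.96% of all tested probes), and with cyclic loess 20 (4.94%). With the deposited scaling 11 of the 25 genes were below 0 in all 6 pairs, and in the other 14 at least 1 pair was higher after recovery. With array medians aligned 23 were below 0 in all pairs, and with cyclic loess all 25. For these counts below 0 no share of all tested probes is given either, so they only describe the choice. The mean over the 6 pairs was below 0 for each of the 25 genes under all 4 scalings, and it was closest to 0 for AT2G28660 and AT3G19370 with the deposited scaling, at -0.14 and -0.17.

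**Figure D4:**
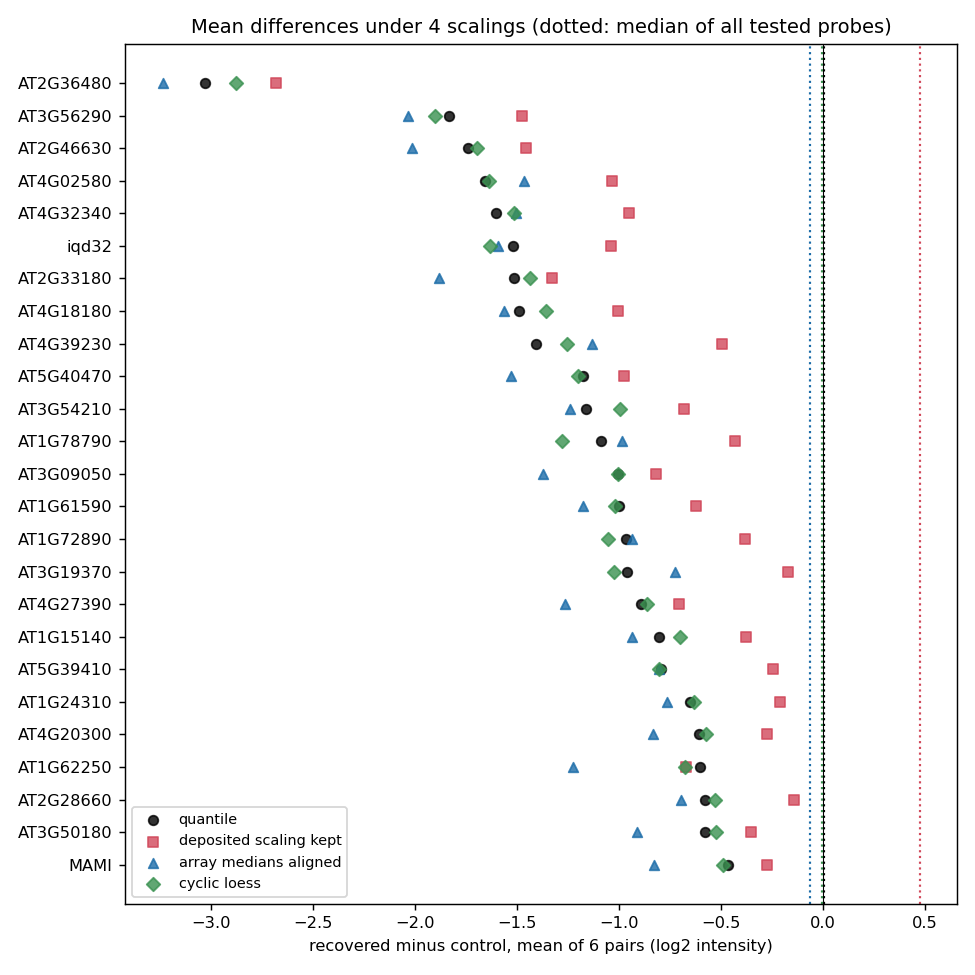
Mean difference of the 6 pairs, recovered minus control on the log2 scale, for each of the 25 genes under 4 scalings; dotted lines give the median of all tested probes under each scaling in the same colour. All these means lie below 0, also for the 14 genes with single pairs above 0 under the deposited scaling; the deposited scaling gives the smallest decreases for all but AT1G62250, and its median of all probes stands at 0.47.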

How the data were processed

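Transcript levels were measured on arrays in 12 samples, 6 per group, grouped by their titles. The authors deposited intensity values on a linear scale for 3439 probes; background correction and scaling are not given in the sources used here. No sample column was left out (0 unused). Values were quantile normalised, floored at 0.0322 (the 5th percentile of positive values) and taken to log2. Probes needed at least 6 of 12 deposited values above the floor. The fit over all tested probes used limma 3.58.1 in R 4.3.3 without a block (two-sided, Benjamini-Hochberg adjusted p under 0.05). It was tried on simulated data with independent samples, so its error rate was not checked for alike adjacent numbers. Genes came from the platform annotation (1 gene for 692 probes, several for 870, none for 1877), with current symbols from RefSeq TAIR10.1; gene functions are general background. Probe sequences were not used here, so near-identical family members may share a probe.

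The members and lists were chosen with earlier results of these data known. Values are shown for the 8 genes with the largest mean decrease, the 2 nearest inside and the 2 nearest outside the threshold and members of fixed lists; further genes were picked after their values were seen. Samples that share a number deviated together from the mean of their group (r of 0.111 to 0.487 for the 6 numbers), so numbers were taken as pairs; this rests on the titles and the data. Alternatives covered scaling, floor, filter, threshold, left-out samples, blocks, variance trend and array weights. The number of arrays limits precision.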

Additional observations from a re-analysis of the deposited data

Results flagged for a closer look

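Of 50 groups of 6 values (25 genes in both groups), 1 held a sample far from the others. This was judged by its gap to the nearest sample over the range of the group. Chance gives about 2.5 if the 6 values are independent. Adjacent numbers were alike here, so that figure may not apply. In AT3G19370, control 1 had a log2 intensity of -3.53, against -2.59 in the next control.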

How the results depend on the processing

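Removing adjacent numbers was chosen after seeing the data. The mean difference of every one of the 25 genes stayed below 0 in all 700 values from the alternatives; the rule fixes this sign, and leaving out samples could hardly turn it. With the deposited scaling kept, single pairs were above 0 in 14 of the 25 genes. Of these values, 15 moved by more than the SD of the pairs, 8 with the deposited scaling kept and 5 with array medians aligned. The median difference of the 25 was -0.67 with the deposited scaling kept and -1.23 with array medians aligned, and between -1.11 and -0.93 without the samples of 1 number. The count of 25 genes was 7 with the deposited scaling kept (6 of the 25), 44 with a threshold of 0, 11 with a threshold of -0.5, and 50 with adjacent numbers averaged. It was 48 with numbers 1 and 2 removed, 68 with 3 and 4 removed and 44 with 5 and 6 removed, and between 29 and 35 with 1 number removed; fewer pairs make the rule easier to meet. It was 33 with array medians aligned (21 of the 25), 22 with cyclic loess (20 of the 25), and 22 under the mirror rule. Over the whole array limma called 69 probes, 41 lower and 28 higher (40.6% higher). It called 35 with the deposited scaling kept (82.9% higher) and 68 with array medians aligned (22.1% higher). It called 151 with the floor at the 20th percentile, 150 with all 12 values above the floor, 109 with a variance trend and robust fitting and 239 with array weights. It called 0 with adjacent numbers averaged and 1 with them as a random block. Without 1 sample it called between 21 and 68, and at most 34 without any 1 sample other than recovered 3 or 4. With the replicate number as a block it called 85, of which 46 were among the 69. The block changed the call of AT4G18180 and of no other of the 25 genes. The array background is not known, which limits the dim genes most.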
